A study of Mus musculus with 7 samples.

Results

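RNA from 1 mammary tumour labelled spindle cell carcinoma was compared, gene by gene, with RNA from 3 control mammary glands of mice. Members of the comparison are the tumour library whose tissue label is spindle cell carcinoma and the 3 libraries whose tissue label is mammary gland, which makes 4 of the 7 libraries of the series. The other 3 are tumours: 2 adenosquamous carcinomas (1a and 1b) and 1 papillary carcinoma, and their values stand beside the comparison as a description. The series title assigns the tumours to ECD transgenic mice, and the design text calls the glands and the tumours independent. No source used here states the strain, the age, the promoter of the transgene or the genotype of the gland donors. Each tumour was sampled as a piece from its centre, so stroma, vessels and blood cells of that piece were read with the tumour cells. With 1 tumour library no spread between tumours can be measured, and an exact permutation of 1 library against 3 cannot give a p below 0.25. The results are therefore levels and gaps, with no replicate check on the tumour side.

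Spindle cell carcinoma of the mammary gland is a form of metaplastic carcinoma whose elongated cells resemble connective tissue. Such tumours are known for low levels of the adhesion proteins that tie epithelial cells together and for high levels of vimentin and other mesenchymal proteins. The change from the epithelial to the mesenchymal state (EMT) is driven by transcription factors of the Zeb, Snail and Twist families, which bind E-box motifs in promoters of epithelial genes. A normal mammary gland is a tree of ducts, with luminal cells that face the lumen and basal cells around them, set in a pad of fat, vessels and fibroblasts. Each gland library is therefore a mixture, and in such bulk samples fewer cells of a type and less RNA per cell cannot be told apart.

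Levels are in CPM, counts scaled to a library of 1000000 after TMM correction for composition. A gene was tested if the average of its gland mean and its tumour level was at least 1 CPM. It was called higher if the tumour stood at least 2-fold above the highest gland, and lower if it stood at least 2-fold below the lowest gland, on log2 CPM with a prior count of 2. Leaving out a gland can only keep or widen a called gap. For the same genes, counts given without a gland can therefore only stay or rise. Total counts were 6654544 in the tumour and 5148438, 35631279 and 34079708 in glands 1, 2 and 3, so that 1 read was worth 0.0974 CPM in the tumour and 0.35 CPM in gland 1. Mitochondrial RNA made up 19.9% of the tumour's counts and 48.4% to 64.8% of those of the glands, and 9 of 13 mitochondrial coding genes tested were called lower. Whether the different mitochondrial share moved other levels was not tested beyond the alternative scalings.

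Of 14562 genes tested, 1592 (10.9%) were called higher and 1779 (12.2%) lower, so 47.2% of the calls were upward. The shares of 10.9% and 12.2% are those to set beside every list count below. A list near them gives no result about its members as a group. With library totals without mitochondrial genes in place of TMM that share was 60.5%, and the median difference of all tested genes moved from 0.09 to 0.38 on the log2 scale. The tumour lay inside the range of the 3 glands for 4726 genes (32.5%). Gaps of at least 4-fold were found for 647 genes upward and 895 downward, and gaps of at least 16-fold for 125 and 247. No read was counted in the tumour for 310 of the tested genes.

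**Figure D1:**
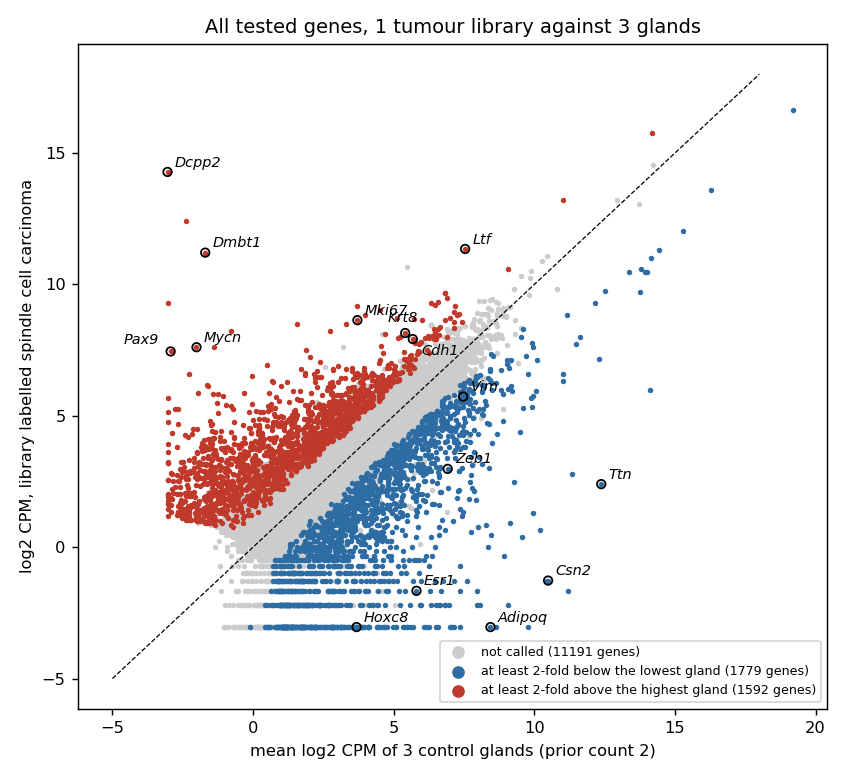
Each point is 1 of the 14562 tested genes, with the mean log2 CPM of the 3 glands on the x axis and the log2 CPM of the tumour on the y axis; red points stood at least 2-fold above the highest gland and blue points at least 2-fold below the lowest. Dcpp2, Dmbt1, Pax9 and Mycn lie far above the diagonal, Csn2, Adipoq and Ttn far below it, and horizontal rows at the bottom are genes with 0, 1, 2 or 3 reads in the tumour.

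Ecd, the gene named in the series title, encodes a cell cycle regulator. Its level was 12.6, 14.6 and 18.8 CPM in glands 1, 2 and 3 and 21.5 CPM in the tumour. The tumour was the highest of the 4, by 1.14-fold over gland 3, and was not called. The tables count the mouse gene, and reads of a transgene were not counted separately.

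Genes of epithelial adhesion stood above the glands in the library labelled spindle cell carcinoma, and genes of the mesenchymal state did not. Of 28 tested members of the list of epithelial junctions and their regulators, 17 were called higher and 0 lower, with a median difference of 2.17 on the log2 scale against 0.09 over all tested genes. Of 20 members of the mesenchymal list 0 were called higher and 5 lower, with a median of -0.08. The mean log2 level of the junction list was 4.92 in this tumour and 2.48 to 2.59 in the glands. The papillary library reached 4.56, adenosquamous 1b 4.50 and adenosquamous 1a 3.05, so a rise over the glands was not particular to this tumour. For the mesenchymal list the mean was 3.73 here, inside the 3.67 to 4.74 of the glands. Neither list moved against the glands in the direction described above for proteins of spindle cell tumours. The measures are unlike, since the values here are RNA of bulk tissue set against whole glands with fat, vessels and fibroblasts. What a different share of such tissue did to either list was not tested. Whether the label is right was not tested, so the sample is named here by its label only.

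Cdh1, the E-cadherin of adherens junctions, was at 83.2, 42.7 and 38.0 CPM in the glands and at 242 CPM in the tumour, 2.91-fold above gland 1. Dsp, the desmoplakin that anchors keratin filaments at desmosomes, was at 35.7, 23.7 and 48.8 CPM in the glands and 419 CPM in the tumour, an 8.59-fold gap. Dsc2, a desmosomal cadherin, was at 8.74, 3.08 and 3.37 CPM against 86.7 CPM, and the plaque protein gene Pkp1 at 1.75, 2.09 and 3.52 CPM against 30.4 CPM. These genes were called higher, so the tumour lay above all gland values by the rule of the call. Cldn3 and Cldn7, claudins of tight junctions, were 6.02-fold and 3.19-fold above the highest gland. The membrane serine protease gene Prss8 was 6.63-fold and Jup, plakoglobin, 3.44-fold above it.

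Of the 11 junction genes that were not called, 9 stood above the highest gland by less than the limit and 2, Cldn4 and Pkp2, lay inside the range of the glands. Epcam, an epithelial surface glycoprotein, was at 118, 51.1 and 56.8 CPM in the glands and 212 CPM in the tumour, a gap of 0.84 on the log2 scale. Esrp1, a splicing factor that sets the epithelial forms of many transcripts, was at 66.1, 15.8 and 15.6 CPM against 109 CPM, a gap of 0.73. In both cases gland 1, the shallowest library, held the highest gland value. Without gland 1 the number of junction genes called higher was 26 in place of 17.

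The mesenchymal genes gave another picture. Vim, the intermediate filament vimentin, was at 127, 181 and 240 CPM in the glands and 53 CPM in the tumour, 2.40-fold below the lowest gland. Fap, a surface protease of activated fibroblasts, was at 34.3, 23.6 and 15.6 CPM against 1.36 CPM, and Pdgfra, a growth factor receptor of fibroblasts, at 40.9, 88.1 and 119 CPM against 7.99 CPM. The cadherin genes Cdh11 and Cdh2 were 3.77-fold and 2.25-fold below the lowest gland. Fn1, which encodes fibronectin, was at 77.9 CPM in the tumour, inside the 42.0 to 196 CPM of the glands, and Sparc, a matrix glycoprotein, at 219 CPM inside their 113 to 323 CPM. The adenosquamous libraries 1a and 1b stood at 3777 and 3348 CPM for Fn1 and at 519 and 435 CPM for Vim. Under library totals without mitochondrial genes the mesenchymal list held 1 member called higher and 3 lower, and without gland 3 it held 2 called higher.

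Among EMT transcription factors 4 of 10 tested were called lower and 3 higher. Zeb1, a repressor of epithelial genes, was at 176, 106 and 93.9 CPM in the glands and 7.79 CPM in the tumour, 12.1-fold below the lowest gland. Its relative Zeb2 was at 135, 248 and 204 CPM against 20.8 CPM. Twist1, a basic helix-loop-helix factor, had 2 reads in the tumour, which is 0.195 CPM with an exact 95% Poisson interval of 0.0236 to 0.704 CPM, against 5.25, 8.32 and 8.15 CPM in the glands. Such intervals cover counting error only. Prrx1, a homeobox factor of fibroblasts, was 4.53-fold below the lowest gland. Snai2 lay inside the gland range, and Snai1 stayed below the filter, at 0.584 CPM in the tumour and 0 to 0.797 CPM in the glands.

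Foxc1 and Tbx2 were among the members called higher. Foxc1, a forkhead factor, was at 11.5, 6.39 and 6.79 CPM in the glands and 119 CPM in the tumour. Tbx2, a T-box factor, was at 0, 2.15 and 3.56 CPM in the glands and 10.4 CPM in the tumour, a gap of 1.52 on the log2 scale. Thus 4 EMT factors stood below all glands while 3 other members of the same list stood above them.

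**Figure D2:**
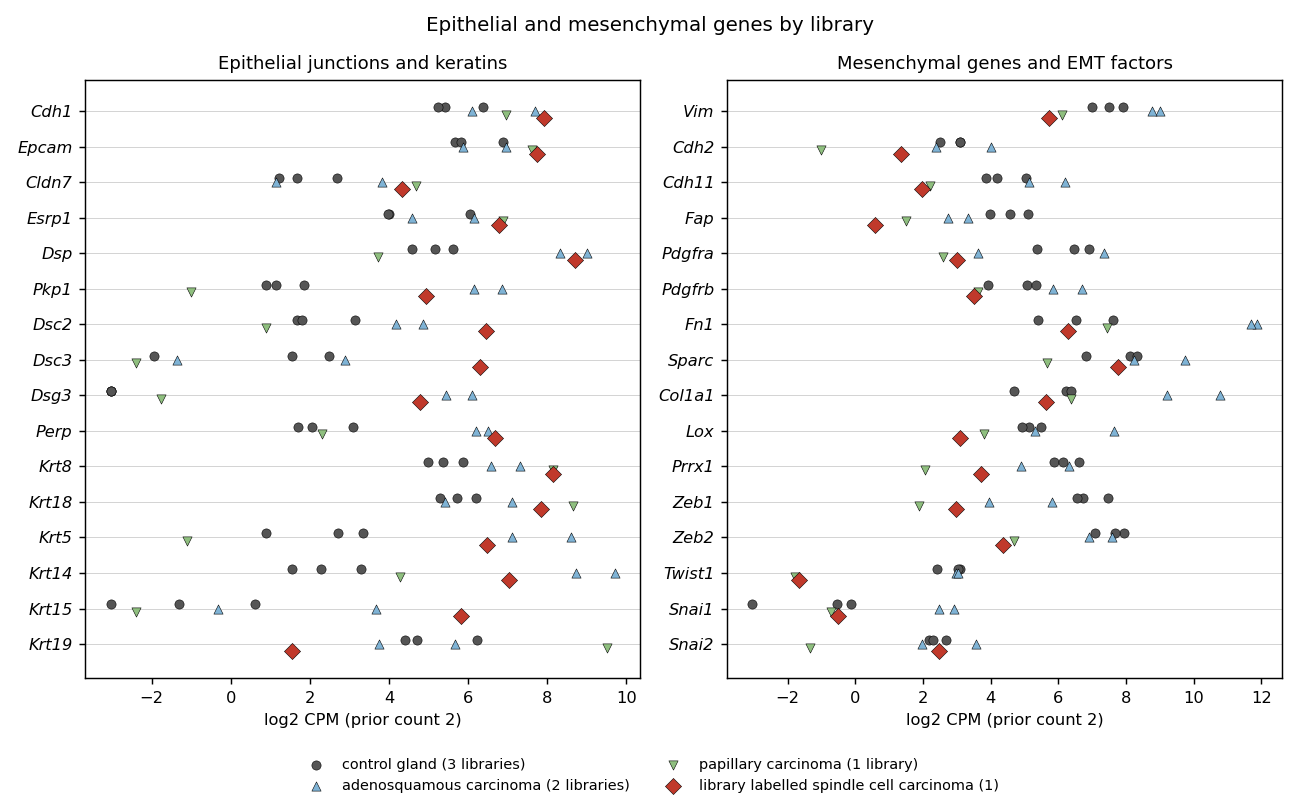
Log2 CPM (x axis) of 16 epithelial genes, left, and 16 mesenchymal genes and EMT factors, right, with 1 symbol per library; glands are grey circles and the library labelled spindle cell carcinoma is a red diamond. The diamond lies to the right of the 3 glands for Dsp, Dsc2, Krt8 and Krt5 and to their left for Vim, Zeb1 and Twist1, and inside their range for Fn1 and Sparc.

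Promoters of Cdh1, Epcam, Cldn7 and Esrp1 were sought because Zeb and Snail factors are known to bind the E-box letters CACCTG and CAGGTG. These letters are each other's reverse complement. Cdh1 and Esrp1 had no entry among the promoters used. Those of Epcam, which was not called, and Cldn7, which was called higher, are shown. Both sequences come from RefSeq on GRCm38.p6, run from 250 bases before to 50 bases after an annotated start on the plus strand, and carry the E-box letters in capitals. The first is Epcam at chr17:87635729-87636028 and the second the downstream start of Cldn7 at chr11:69965171-69965470.
Epcam: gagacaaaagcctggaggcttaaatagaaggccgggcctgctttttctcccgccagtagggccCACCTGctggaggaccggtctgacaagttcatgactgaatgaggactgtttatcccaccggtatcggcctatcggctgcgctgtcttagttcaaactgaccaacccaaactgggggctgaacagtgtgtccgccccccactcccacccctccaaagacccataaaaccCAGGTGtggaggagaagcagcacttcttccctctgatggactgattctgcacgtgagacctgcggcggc
Cldn7: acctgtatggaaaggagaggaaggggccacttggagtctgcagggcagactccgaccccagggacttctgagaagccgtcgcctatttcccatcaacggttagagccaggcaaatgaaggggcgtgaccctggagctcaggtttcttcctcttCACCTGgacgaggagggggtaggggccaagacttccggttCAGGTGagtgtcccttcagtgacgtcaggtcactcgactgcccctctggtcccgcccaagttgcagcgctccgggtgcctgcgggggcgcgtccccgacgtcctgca
In Epcam the motifs begin 187 and 19 bases before the start, and in Cldn7 97 and 57 bases before it. Of all 32851 mouse promoters of 300 bases in the table, 20.2% held at least 1 of these motifs. The upstream start of Cldn7 at chr11:69964529-69964828 held 0. A match of letters is a description and shows no binding.

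The keratins of both epithelial layers were high together. Krt8 and Krt18, the keratin pair of simple and luminal epithelium, were at 41.3, 31.7 and 58.8 CPM and at 52.5, 38.9 and 73.8 CPM in the glands. In the tumour they were at 283 CPM and 230 CPM. Krt5 and Krt14, the pair of basal cells, were at 1.75, 6.39 and 9.98 CPM and at 2.80, 4.77 and 9.75 CPM in the glands. In the tumour they stood at 89.0 CPM and 130 CPM, 8.92-fold and 13.4-fold above the highest gland. Krt15, a keratin of stratified epithelia, was at 0, 0.281 and 1.41 CPM against 56.4 CPM. One luminal keratin went the other way: Krt19 was at 26.2, 21 and 74.4 CPM in the glands and 2.83 CPM in the tumour.

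Of 18 basal and myoepithelial genes 10 were called higher and 2 lower. Trp63, the p63 factor of basal cells, was 2.10-fold above the highest gland, at 63.4 CPM against 15.2 to 30.2 CPM. Cdh3, P-cadherin, was 9.71-fold and Col17a1, a collagen of hemidesmosomes, 7.72-fold above it. The 2 genes called lower belong to the contractile side of the layer: Oxtr, the oxytocin receptor, and Myh11, smooth muscle myosin, and 1 of the pair was called with library totals without mitochondrial genes. Acta2, smooth muscle actin, was at 111 CPM in the tumour against 23.4 to 88.4 CPM and was not called.

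Of 18 squamous genes 10 were tested, and of these 5 were called higher and 1 lower. Krt1, Krt13, Krt16, Ivl, Lor, Sprr1b, Sprr3 and Krtdap were below the filter, while Dsg3 passed it only through its level in the tumour. The share called higher was therefore set in part by the filter. Dsg3, a desmosomal cadherin of stratified epithelium, had 0 reads in every gland and 27.3 CPM in the tumour. This is at least 512-fold above the floor of 3 reads over the 3 glands. Perp, a desmosomal membrane protein, was at 3.15, 4.05 and 8.39 CPM against 103 CPM, and Dsc3 was 14.3-fold above the highest gland. The genes of cornification stayed low: Ivl, Lor, Sprr3 and Krtdap had 0 reads in the tumour, and Krt10 was called lower. In the adenosquamous libraries Krt14 was at 845 and 423 CPM and Dsg3 at 42.9 and 67.8 CPM.

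The 4 largest gaps upward belonged to genes of secreted proteins, Dcpp2, Dcpp1, Dcpp3 and Dmbt1. The Dcpp genes encode small secreted proteins known from salivary glands, where they were named after demilune cells and the parotid. In the tumour 266196 reads were assigned to Dcpp1, Dcpp2 and Dcpp3, which is 4% of the library (exact binomial 95% interval 3.99% to 4.02%). The 3 glands together had 1 such read and the other 3 tumours had 6.

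Dcpp2 had 0 reads in each gland and stood at 19830 CPM in the tumour, at least 372100-fold above the floor of 3 reads over the glands. Dcpp3 had 0 reads in each gland and 621 CPM in the tumour, at least 11660-fold above that floor. Dcpp1 had 1 read in gland 1, 0 in glands 2 and 3, and 5473 CPM in the tumour. The genes lie side by side on chromosome 17 of GRCm38, Dcpp1 at chr17:23880876-23882853, Dcpp2 at chr17:23880880-23900788 and Dcpp3 at chr17:23917458-23919441. The GENCODE model of Dcpp2 spans that of Dcpp1 and the genes belong to 1 family of close relatives, so the split of reads between them is uncertain. Their transcripts were not compared here.

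The promoters of the 3 genes are shown because the 3 neighbours were high together. They are RefSeq sequences on GRCm38.p6, plus strand, 250 bases before to 50 bases after the start, at chr17:23880626-23880925, chr17:23898472-23898771 and chr17:23917208-23917507. Capitals mark TATAA, searched with its reverse complement TTATA.
Dcpp1: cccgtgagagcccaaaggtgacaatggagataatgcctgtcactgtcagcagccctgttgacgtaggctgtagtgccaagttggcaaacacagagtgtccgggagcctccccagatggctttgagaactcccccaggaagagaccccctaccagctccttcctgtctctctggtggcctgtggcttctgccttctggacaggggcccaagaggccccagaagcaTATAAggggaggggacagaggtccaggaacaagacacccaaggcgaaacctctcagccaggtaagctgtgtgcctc
Dcpp2: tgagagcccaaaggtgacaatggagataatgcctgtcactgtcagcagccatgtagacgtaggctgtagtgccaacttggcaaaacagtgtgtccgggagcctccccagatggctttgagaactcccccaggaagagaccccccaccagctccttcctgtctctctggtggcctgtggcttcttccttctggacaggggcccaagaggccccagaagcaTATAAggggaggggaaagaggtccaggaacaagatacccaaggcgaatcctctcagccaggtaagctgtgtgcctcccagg
Dcpp3: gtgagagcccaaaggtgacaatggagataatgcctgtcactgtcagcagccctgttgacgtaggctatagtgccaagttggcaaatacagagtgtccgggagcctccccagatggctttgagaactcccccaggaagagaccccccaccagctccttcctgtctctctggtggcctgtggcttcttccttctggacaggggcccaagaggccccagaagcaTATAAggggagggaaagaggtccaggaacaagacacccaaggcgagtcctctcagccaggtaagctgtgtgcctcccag
Aligned end to end, Dcpp1 and Dcpp2 were identical at 286 of 305 columns (93.8%), Dcpp1 and Dcpp3 at 289 of 304 (95.1%) and Dcpp2 and Dcpp3 at 291 of 302 (96.4%). The TATAA letters began 26, 31 and 29 bases before the start of Dcpp1, Dcpp2 and Dcpp3. TATAA or TTATA stood in 24.9% of all 32851 promoters.

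Other genes of mucosal and gland secretion stood high beside them. Dmbt1, a scavenger receptor protein shed into saliva and mucus, had 0, 6 and 14 reads in the glands, at most 0.656 CPM, and 2366 CPM in the tumour, a 3607-fold gap to gland 3. Ltf, the iron-binding milk and mucosal protein lactoferrin, was at 214, 253 and 118 CPM in the glands and 2609 CPM in the tumour. For Ltf the glands were already high, and the tumour stood 10.3-fold above the highest.

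A list of 29 secretory genes of salivary and mucosal glands was drawn up after values were seen and is given as a description. Of its members 15 passed the filter, several of them only through their level in the tumour, so the number called higher was set by the choice of genes and is not given. Muc5b, a gel-forming mucin, was at 58.7 CPM against 0 to 0.699 CPM in the glands, and Aqp5, a water channel of secretory cells, at 36.3 CPM against 1.05 to 4.69 CPM. Prb1, a proline-rich salivary protein gene, had 33 reads in the tumour and 0 in the glands, and Crisp3 had 96 and 0. Other salivary products were absent or nearly so: Smr2, Smr3a, Bpifb2 and Pip had 0 reads in the tumour, and Bpifa2, Prol1 and Smgc had 1 each. Amy1, the salivary amylase gene, was called lower, with 0 reads in the tumour against 58.4, 110 and 133 CPM in the glands.

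Further genes among the 15 largest gaps were of mixed kinds. Cyp2a5, a cytochrome P450, had 0 reads in each gland and 517 in the tumour, 50.4 CPM. B3galt5, a galactosyltransferase of glycan chains, was at 96.8 CPM in the tumour and at most 0.156 CPM in the glands. Car12, a membrane carbonic anhydrase, was at 0, 1.59 and 0.797 CPM against 297 CPM, and Igfbp2, a binding protein of insulin-like growth factors, at 0, 0.374 and 0.422 CPM against 73.0 CPM. Slc26a7, an anion exchanger, and Epha5, an ephrin receptor, were at 25.3 CPM and 38.0 CPM in the tumour with at most 3 reads in any gland. These 6 genes were named for the size of their gaps, so their distance from the glands is no separate result. Genes chosen after their values were seen add to this group: Cyp2f2 at 363 CPM against 0.937 to 5.08 CPM, Msln (mesothelin) at 197 CPM against 0.0312 to 2.10 CPM, and the chloride channel gene Cftr at 7.79 CPM against at most 0.0935 CPM.

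Several transcription factors were read in the tumour and hardly at all in the glands. Pax9, a paired-box factor known from the pharyngeal pouches, palate and teeth, had 0, 1 and 0 reads in the glands and 1794 in the tumour, 175 CPM. Pitx1, a homeobox factor of the hindlimb and the oral ectoderm, had 0, 1 and 1 reads in the glands and stood at 38.4 CPM. Sox2, a factor of stem cells and of foregut epithelium, had 0, 0 and 1 reads in the glands and stood at 20.1 CPM. Sox1, a relative named after its values were seen, was at 1.75, 0.0312 and 0 CPM in the glands and 70.9 CPM in the tumour. In the adenosquamous libraries Pitx1 was at 9.76 and 0.672 CPM and Pax9 at 2.61 and 0 CPM, and in the papillary library both were below 1 CPM.

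Hox genes lie in 4 clusters and mark position along the axis from head to tail. They were collected after values were seen. The tumour had 6 Hox reads in all, 1 in each of 6 genes, and 0 in the other 33 of 39 genes. The glands had 283, 3684 and 1762 Hox reads, which sum to 99.0, 115 and 82.6 CPM against 0.584 CPM in the tumour. The sums were 33.9 and 20.7 CPM in the adenosquamous libraries and 12.1 CPM in the papillary one.

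Of 39 Hox genes 17 passed the filter, each through its level in the glands, so the number called lower carries no information beyond the read sums. Hoxc8 was at 8.39, 20.0 and 12.1 CPM in the glands and had 0 reads in the tumour, at least 28.7-fold below the lowest gland when set against 3 reads. Hoxa7 was at 11.2, 13.0 and 6.23 CPM, also with 0 reads in the tumour, at least 21.3-fold lower. Hoxc10 was not called, with 0 reads in the tumour, 8.66 CPM in gland 2 and at or below 0.141 CPM in the other 2 glands. Along the chromosomes, the window of 15 neighbouring tested coding genes from Mpp6 to Hoxa10 on chromosome 6 had the lowest median difference of the windows, at -3.03, with 9 genes called lower and 1 higher.

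**Figure D3:**
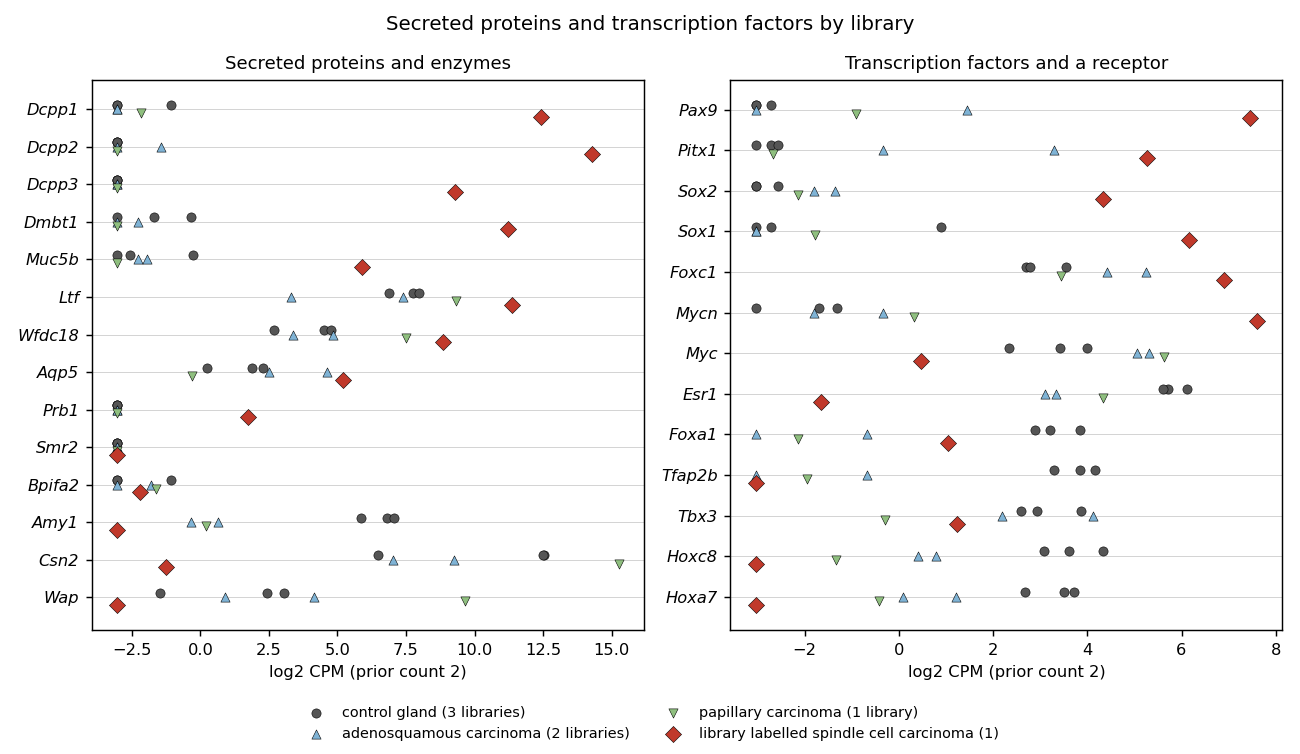
Log2 CPM (x axis) by library for 14 genes of secreted proteins and enzymes, left, and 13 genes of transcription factors and a receptor, right, 1 symbol per library. The red diamond of the library labelled spindle cell carcinoma stands to the right of all other libraries for Dcpp1 to Dcpp3, Dmbt1, Pax9 and Mycn and at the left edge, where genes without reads are drawn, for Amy1, Wap, Tfap2b, Hoxc8 and Hoxa7.

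Genes of mammary function stood low. Of 10 milk genes tested 8 were called lower and 0 higher. Csn2, beta-casein, was at 5873, 5700 and 88.6 CPM in the glands, a wide spread, and had 3 reads in the tumour, 0.292 CPM (Poisson interval 0.0603 to 0.854 CPM). Csn1s1, an alpha casein, was at 1297, 988 and 89.2 CPM against 0.682 CPM, and Csn3, kappa-casein, at 850, 1037 and 280 CPM against 5.46 CPM. These caseins were called lower, so every gland stood above the tumour by the rule of the call. The papillary library held Csn2 at 39150 CPM, against 605 and 129 CPM in the adenosquamous ones.

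Of 22 luminal genes 7 were called higher and 8 lower. Esr1, the oestrogen receptor, was at 52.5, 48.7 and 68.8 CPM in the glands and had 2 reads in the tumour, 0.195 CPM (Poisson interval 0.0236 to 0.704 CPM). Prlr, the prolactin receptor, was at 393, 160 and 273 CPM against 19.7 CPM, and Foxa1, a pioneer factor of oestrogen receptor binding, at 9.09, 7.23 and 14.2 CPM against 1.95 CPM. Gata3, the luminal GATA factor, stood 2.05-fold below the lowest gland. Pgr, the progesterone receptor, was at 3.21 CPM, just under the 3.50 CPM of gland 1, and was not called. Tfap2b, an AP-2 factor of the mammary epithelium named after its values were seen, was at 17.8, 9.69 and 14.3 CPM and had 0 reads in the tumour.

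The luminal genes called higher were of another kind. Ehf and Elf3, epithelial ETS factors, were at 594 CPM and 28.2 CPM in the tumour, 3-fold and 18.8-fold above the highest gland. Spdef, an ETS factor of mucus-secreting cells, was at 0, 0.187 and 0.234 CPM against 3.60 CPM. Elf5, the ETS factor of the milk-secreting lineage, was at 71.8 CPM inside the 25 to 151 CPM of the glands.

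Genes of mitosis and replication stood mostly above the glands. All 24 mitosis genes of the list were called higher, beside 10.9% of all tested genes, with a median difference of 4.50 on the log2 scale. Mki67, the Ki-67 antigen of cycling cells, was at 8.39, 27.9 and 9.23 CPM in the glands and 400 CPM in the tumour. Cenpf, a kinetochore protein gene, was 17.7-fold above the highest gland and Plk1, the polo-like kinase of mitosis, 21.7-fold. Of 23 replication genes 19 were called higher and 0 lower. Rrm2, the small subunit of ribonucleotide reductase, was 24.9-fold and Mcm2, of the replicative helicase, 7.91-fold above the highest gland. Mean log2 levels of the mitosis list were 4.39, 3.84 and 4.51 in the other tumours and 4.32 in this one.

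Among regulators of the cell cycle, Ccnd1, cyclin D1, was at 8.04, 17.4 and 18.6 CPM in the glands and 78.9 CPM in the tumour, and its kinase Cdk4 was 3.33-fold above the highest gland. Ccnd2, cyclin D2, was at 66.4, 122 and 121 CPM against 7.99 CPM. Cdkn1c, the p57 inhibitor, and Rb1, the retinoblastoma protein gene, were 7-fold and 3.95-fold below the lowest gland. Cdkn2a was under the filter, with 0 reads in the glands and 0.487 CPM in the tumour, and Trp53, Mdm2 and Cdkn1a were not called.

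The MYC family was uneven. Mycn, the N-Myc factor, had 0, 9 and 4 reads in the glands and 2009 in the tumour, 196 CPM, a 698-fold gap to gland 2. Myc was at 4.89, 10.7 and 15.9 CPM in the glands and 1.27 CPM in the tumour, 3.87-fold below the lowest gland. Mycl, at 7.21 CPM, lay inside the range of the glands. Mycn was at 0.168, 0.672 and 1.14 CPM and Myc at 33.0, 39.3 and 49.6 CPM in adenosquamous tumours 1a and 1b and the papillary tumour. The MYC list of 20 genes holds the family itself and nucleolar and metabolic genes known to respond to MYC proteins. Of these, 8 were called higher, Mycn among them, and 1 lower, which was Myc itself. The list's mean log2 level was 5.53 in this tumour and 3.90 to 4.38 in the glands. It was 5.26 in the papillary library and 4.90 and 4.86 in adenosquamous tumours 1a and 1b, so a rise over the glands was not particular to this tumour. Odc1, the rate-limiting enzyme of polyamine synthesis, was 3.42-fold, Cad, of pyrimidine synthesis, 3.38-fold and Nop56, of the nucleolus, 2.71-fold above the highest gland. Ncl and Npm1, the nucleolar proteins nucleolin and nucleophosmin, lay inside the gland range.

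The genes on either side of the highest transcription factors did not share their levels as a block. Of the 10 tested coding neighbours of Mycn at chr12:12936093-12941914, 2 were called higher and 4 lower, beside 10.9% and 12.2% over all tested genes. Their differences ran from -4.79 to 5.17 on the log2 scale, with a median of 0.41. Ddx1, which is among them, was at 79.4, 63.0 and 67.0 CPM in the glands and 78.9 CPM in the tumour. Of the 10 neighbours of Pax9 at chr12:56691767-56712822, 0 were called higher and 2 lower, with a median of -0.28, and of the 10 of Dmbt1 0 were higher and 1 lower. DNA copy number was not measured, and whether a gain of DNA lies behind any of these levels was not tested. One pair of neighbours on chromosome 18, named after the values were seen, was high together: Rttn was at 149 CPM against 1.75 to 6.01 CPM in the glands and Socs6 at 200 CPM against 17.9 to 27.1 CPM. Of the 8 tested neighbours of Rttn 1, Socs6, was called higher and 2 were called lower.

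The windows with the highest median differences held the replication-dependent histone genes of chromosome 13. From Zkscan8 to Hist1h2ap the median was 5.23 and 14 of 15 genes were called higher. The same window had medians of 5.88, 4.75 and 4.08 in adenosquamous tumours 1a and 1b and the papillary tumour, each against the same 3 glands. These genes are near-identical copies, so the share of each is uncertain. Next came the window with the Dcpp genes, with a median of 2.36 and 6 of 15 genes called higher. Beside Dcpp1 to Dcpp3 it held Prss32, a serine protease gene with 0 reads in the glands and 59 in the tumour.

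Transcripts of the fat pad stood far below the glands. Of 22 adipocyte genes 21 were called lower, with a median difference of -8.39 on the log2 scale. Adipoq, adiponectin, was at 311, 354 and 377 CPM in the glands and had 0 reads in the tumour, at least 1065-fold below the lowest gland. Fabp4, the fatty acid binding protein of adipocytes, was at 1995, 3298 and 2570 CPM against 6.72 CPM. Of 17 lipogenesis genes 13 were called lower: Scd1, the stearoyl desaturase, was at 7658, 27300 and 27770 CPM against 64.0 CPM, and Fasn, fatty acid synthase, 15-fold below the lowest gland.

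Skeletal muscle genes were called lower for 14 of 18 members. Ttn, titin, was at 38380, 75.2 and 52860 CPM in the glands and 5.16 CPM in the tumour. Gland 2 held far less muscle RNA than glands 1 and 3, and without gland 2 the number called lower was 18. The mean log2 level of the list was 9.40, 0.97 and 10.68 in glands 1, 2 and 3 and -1.19 in the tumour.

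Vessels and fibroblasts were also read less. Of 17 endothelial genes 10 were called lower and 0 higher, and 15 were called lower without gland 1. Pecam1, CD31 of endothelial junctions, was at 72.4, 72.5 and 108 CPM against 15.5 CPM, and Tek, the angiopoietin receptor, 18.5-fold below the lowest gland. Of 16 fibroblast and adipose progenitor genes 9 were called lower and 1 higher, and 14 lower without gland 1. Dpp4, a surface peptidase, was the member called higher, at 55.6 CPM against 4.08 to 22.6 CPM. None of the 7 endothelial genes that were not called stood above the highest gland.

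The fibrillar collagens were not high. Of 29 matrix genes 1 (3.4%) was called higher and 5 (17.2%) lower, beside 10.9% and 12.2% over all tested genes. Without gland 1 the number called lower was 13. The number called higher was 3 without gland 3 and 2 with library totals without mitochondrial genes. Col1a1, the main chain of collagen I, was at 25.5, 75.1 and 82.7 CPM in the glands and 49.6 CPM in the tumour, inside their range. The adenosquamous libraries held it at 1745 and 595 CPM. Thbs2, a matricellular thrombospondin, was 8.80-fold and Lum, the proteoglycan lumican, 5.87-fold below the lowest gland. Col11a1, a minor fibrillar chain, was at 2.80, 3.83 and 3.37 CPM against 13.2 CPM.

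Among 23 tested proteases and inhibitors of the matrix 2 (8.7%) were called higher and 7 (30.4%) lower, beside 10.9% and 12.2% over all tested genes. Without gland 3, 4 were called higher. Mmp15, a membrane-type protease, was at 68.7 CPM against 6.64 to 15.5 CPM, and Timp1, a protease inhibitor, at 2.24 CPM against 0 to 0.750 CPM. Mmp19 was 38.0-fold below the lowest gland. Timp4, an inhibitor rich in fat and muscle, had 2 reads in the tumour against 14 to 19.6 CPM. Mmp9, at 0.487 CPM, and Mmp13, at 1.46 CPM, were far from the 294 and 63.8 CPM and the 266 and 143 CPM of the adenosquamous libraries. In the basement membrane list 3 of 17 genes (17.6%) were called higher and 3 (17.6%) lower. The higher ones included the laminin gene Lama5, 3.45-fold, and Col4a5, 5.86-fold above the highest gland. Lama2, 21.7-fold below the lowest gland, was among the lower ones.

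Immune lists differed among themselves. Of 19 macrophage genes 4 were called lower and 0 higher, with 2 called higher without gland 2. Cd163, a scavenger receptor of resident macrophages, was at 53.9, 21 and 22.8 CPM against 0.682 CPM, and Mrc1, the mannose receptor, 4.09-fold below the lowest gland. Adgre1, the F4/80 antigen, was at 3.41 CPM inside the range of the glands. Of 10 T and NK cell genes tested 0 were called in either direction, with 5 inside the range of the glands and a median difference of -1.85, and Cd3e, of the T cell receptor complex, was at 1.46 CPM against 5.25, 24.2 and 1.12 CPM. With a prior count of 0.5 the number of T and NK genes called lower was 2, and without gland 3 it was 5. Cd79a, of the B cell receptor, had 0 reads in the tumour and in gland 1 and was at 14.3 CPM in gland 2. Of 9 B and plasma cell genes 1 was called lower, or 4 without gland 1, 2 without gland 2 and 2 with TMM over the 4 libraries.

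Genes of antigen presentation by MHC class I were among the lower ones. B2m, the shared light chain, was at 531, 1344 and 919 CPM in the glands and 96.3 CPM in the tumour, 5.51-fold below the lowest gland. Nlrc5, the activator of these genes, was at 4.19 CPM against 15.5 to 28.8 CPM, and H2-K1 and H2-D1, heavy chains, were 2.02-fold and 2.06-fold below the lowest gland. The heavy chains lay close to the 2-fold limit, and 2 of the 16 MHC genes in place of 4 were called lower under upper-quartile scaling or library totals without mitochondrial genes. Of 18 interferon-induced genes 7 were called higher and 1 lower. Oas1a, an antiviral synthetase, was at 1.05, 0.997 and 0.984 CPM against 6.23 CPM, and Gbp2, a guanylate-binding protein, at 8.57 CPM against 26.2 to 31.1 CPM. A cluster of other interferon-inducible genes on chromosome 1, described after its values were seen, stood on the lower side. The window of 15 tested coding genes from Dusp23 to Rgs7 had a median difference of -2.97, with 10 called lower and 0 higher. It holds Ifi205 and Ifi207, with gaps of -5.66 and -4.06 on the log2 scale, while Ifi208 and Ifi209 were not called. Cd274, PD-L1, was 6.78-fold below the lowest gland and Cd276, a relative of it, 4.76-fold above the highest.

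**Figure D4:**
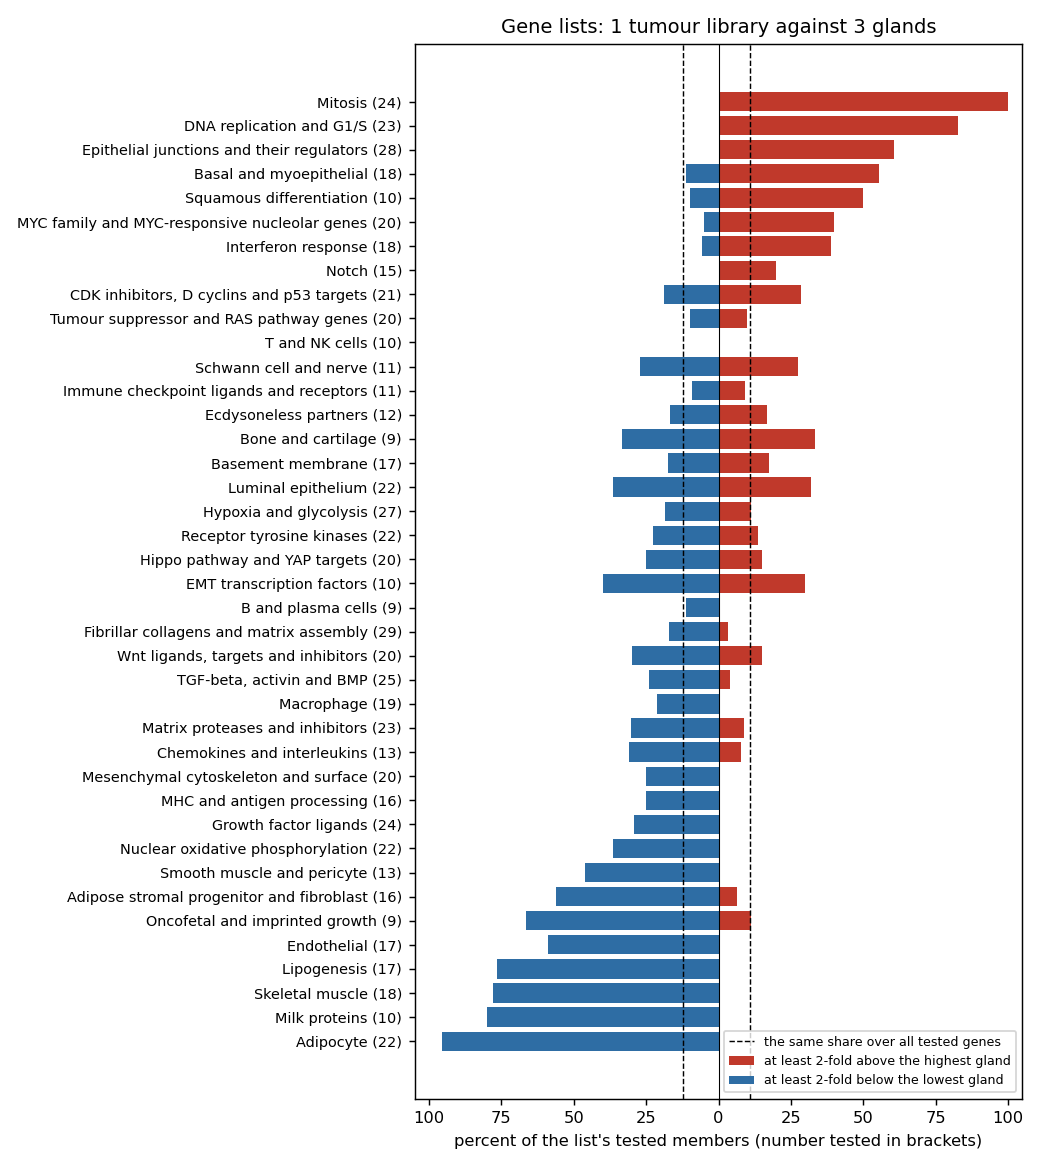
Bars give the percent of each list's tested members (x axis; number tested in brackets) called higher (red, right) or lower (blue, left), with dashed lines at the shares over all tested genes, 10.9% and 12.2%. Among the lists drawn, mitosis, replication and epithelial junctions reach furthest right, and adipocyte, milk protein, muscle and lipogenesis genes furthest left. Lists with fewer than 9 tested members and the Hox and salivary lists, which were drawn up after values were seen, are left out.

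Receptors of growth signalling were called in both directions, and no tested member of the growth factor ligand list was called higher. Ligands outside that list were called higher: Jag2 and Bmp7, given below, and Pgf. Pgf, a growth factor named after its values were seen, had a gap of 4.03 on the log2 scale. Of 22 receptor tyrosine kinases 3 (13.6%) were called higher and 5 (22.7%) lower, beside 10.9% and 12.2% over all tested genes. Ddr1, a collagen receptor of epithelia, was at 8.04, 10.6 and 7.78 CPM against 55.3 CPM, while Ddr2, its relative in connective tissue, was at 65.0, 111 and 88.4 CPM against 16.3 CPM. Erbb3, of the EGF receptor family, was 2.36-fold above the highest gland, and Egfr and Met lay inside the gland range. Mst1r, the receptor of macrophage stimulating protein, had 0 reads in the tumour and was at 2.65 to 3 CPM in the glands. Of the 24 tested ligands of the list 0 were called higher and 7 lower. Hgf, the ligand of Met, was 4.99-fold and Igf1, insulin-like growth factor 1, 24.0-fold below the lowest gland. With library totals without mitochondrial genes or without gland 2, 1 ligand of the list was called higher, and without gland 3, 2 were. The receptors called lower were 8 without gland 2 and 3 with library totals without mitochondrial genes.

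In the Notch list 3 of 15 genes (20.0%) were called higher and 0 lower, beside 10.9% and 12.2% over all tested genes. Notch1, a receptor, was at 50.4, 55.5 and 54.8 CPM against 145 CPM, Jag2, a ligand, was 3.16-fold and Hes1, a target, 2.54-fold above the highest gland. Without gland 3 the number was 5, and with library totals without mitochondrial genes 6. Of 20 Wnt genes 3 were called higher and 6 lower. Axin2, a target of canonical Wnt signalling, was 11.8-fold and the ligand Wnt5a 11.2-fold below the lowest gland, while Sfrp1, a secreted inhibitor, was 2.20-fold above the highest. Axin2 was at 91.0 CPM in adenosquamous tumour 1b.

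In the list of TGF-beta, activin and BMP genes 6 of 25 (24.0%) were called lower and 1 (4.0%) higher. Over all tested genes the shares were 12.2% and 10.9%. With library totals without mitochondrial genes 3 were called in each direction. Without gland 1, 9 were called lower and 2 higher. Bmp7, a ligand, was the gene called higher, at 9.84 CPM against 0 to 1.59 CPM, while Bmp2 was 5.61-fold and Id1, a target of BMP signalling, 2.91-fold below the lowest gland. Of 20 Hippo pathway genes 5 were called lower and 3 higher, Ankrd1, a YAP target, with 0 reads among the former. With library totals without mitochondrial genes 3 were called lower. Yap1 itself was at 49.3 CPM, 1.08-fold above the highest gland and not called.

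Of 27 genes of hypoxia and glycolysis 3 (11.1%) were called higher and 5 (18.5%) lower, the former close to the 10.9% over all tested genes, and 5 were called higher without gland 3 or with library totals without mitochondrial genes. Slc2a1, the glucose transporter GLUT1, was at 4.89, 6.79 and 8.58 CPM against 28.6 CPM, and Hk2, hexokinase 2, at 222, 226 and 174 CPM against 44.5 CPM. Nuclear genes of oxidative phosphorylation were called lower for 8 of 22 members and higher for 0, among them Sdha, of succinate dehydrogenase, 3.38-fold below the lowest gland. That number was 5 with library totals without mitochondrial genes. Of 16 oncofetal and imprinted growth genes 9 were tested, and of these 6 were called lower and 1 higher. Hmga2, Igf2bp1, Igf2bp3, Lin28a, Lin28b, Sall4 and Dlk1 were below the filter, so the count says nothing about them. Igf2, insulin-like growth factor 2, was 5.16-fold and Peg3, a zinc finger gene, 6.53-fold below the lowest gland. Hmga1, a chromatin protein gene, was the member called higher, 3.48-fold above the highest gland, and the imprinted genes H19 and Plagl1 were not called.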

How the data were processed

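The RNA was read with a library kit (Illumina TruSeq, version 2, per the labels' protocols) that keeps no strand, so reads of genes that overlap on opposite strands cannot be told apart. Per the submitters' processing notes, the tools were STAR 2.5, RSEM 1.3 and limma, with the build GRCm38. For filters and annotation, nothing was given in the sources used here. In the tables, the deposited column is headed TPM, but its sums differ between libraries. It was taken to hold the authors' expected counts, which were then made whole by rounding.

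TMM factors (edgeR 4.0.16) came from 14149 genes kept by filterByExpr over 7 libraries. Gaps used log2 CPM with a prior count of 2. The rule was run on simulated libraries, all drawn from the gland means with few genes changed. They held no difference in tissue mixture, so they give no check of the calls here. Positions came from GENCODE M21, which held 50376 of 50600 identifiers.

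Genes named were a fixed set, the 15 largest gaps each way (10 CPM or more), and per list the 3 largest called gaps in the main direction and 2 in the other, or, where none was called, the member with the largest difference. Others were chosen after their values were seen. The 43 lists hold 839 memberships, of which 839 were matched. The comparison, genes and lists were chosen with earlier results of these data known. Alternatives covered scaling, filter, prior count, fold, each gland left out, and edgeR and DESeq2 1.42.0 tests with Benjamini-Hochberg adjustment.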

Additional observations from a re-analysis of the deposited data

How the results depend on the processing

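The main numbers were 1592 genes called higher and 1779 called lower. They stayed within 1.5 times under median-ratio and upper-quartile scaling, TMM over the 4 libraries and a prior count of 0.5. No filter also stayed within that limit, but it tests more genes, which can only add calls. With each gland left out, 1904 to 1939 genes were called higher and 2068 to 2348 lower. That rise was set by the rule, so it is no check of the calls. Library totals without mitochondrial genes gave 2429 higher. A filter at 5 CPM, which tests fewer genes, gave 1048 and 1128, and a 4-fold gap 647 and 895. With the spread pooled over the 4 groups (3 residual degrees of freedom, so the tumour is assumed to vary like the other groups), edgeR passed 171 genes upward and 107 downward at an adjusted p under 0.05, and all 278 were also called by the gap in the same direction. DESeq2 passed 853 upward and 1451 downward, of which 2153 of 2304 were called by the gap. No gap of the 288 genes examined changed sign where the gene had been called, over scaling and prior count. A called gap is at least 1 on the log2 scale and the largest median shift between scalings was 0.29. Such a check could hardly fail, and leaving out a gland could not reverse a called gap. The 1 tumour library, the shallow gland 1 and the muscle RNA in glands 1 and 3 limit what these gaps show.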
